A study of Homo sapiens with 2 samples.

Results

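The androgen receptor is a nuclear receptor that drives transcription in prostate cells, and the genes described here encode proteins that work with it on DNA. Of 8 listed genes, 6 were measured: the coactivators NCOA1, NCOA2 and EP300 and the transcription factors FOXA1, GATA2 and HOXB13. NCOA3, another coactivator of the NCOA1 type, and NCOR1, a corepressor, were not analysed here. The genes were chosen by name, with earlier results of these data known. All 17 probe sets that the array annotation assigns to 1 of these genes alone were used, out of 34880 such probe sets for 17689 genes.

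RNA abundance was compared between LNCaP cultures on Affymetrix Human Genome U133 Plus 2.0 arrays. LNCaP is an androgen-responsive line derived from a human prostate carcinoma. The control culture had received pLKO.1 lentivirus without an insert, and the other culture had received lentivirus expressing a hairpin RNA against KDM4A, a demethylase of histone H3. Both viruses were packaged in HEK293T cells, both cultures were grown in medium with fetal bovine serum, and both were collected 3 days after infection. No androgen or androgen blocker is named for either culture. There was 1 array for each condition, so no difference below has a replicate check or a p-value, and the loss of KDM4A cannot be told apart from any other difference between these cultures.

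Pioneer factors such as FOXA1 and GATA2 bind their sites in closed chromatin and make it accessible, and in the prostate the receptor is found beside them at many enhancers. HOXB13 is a homeodomain factor of the prostate lineage that shares sites with the receptor. Once hormone is bound, the receptor recruits coactivators of the p160 type (NCOA1, NCOA2 and NCOA3) in part through short leucine-rich motifs, and these in turn bring the histone acetyltransferase EP300. NCOR1 does the opposite and tethers a histone deacetylase complex.

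The deposited values are on a log scale, taken as log2, and each probe set was centred on the mean of the 2 arrays, so that its values on the 2 arrays mirror each other. Levels are therefore lost, and whether a gene was expressed at all, including the luminal markers that define LNCaP, could not be read. Each difference is the knockdown value minus the control value on the log2 scale, and a gene's difference is the mean over its probe sets with the SD between them. That SD describes probe sets that share the same RNA and says nothing of the spread between cultures. Genes were called by size alone, at 2-fold or more. KDM4A read 0.59 in the control and -0.59 in the knockdown as the mean of its 2 probe sets, a difference of -1.18 ± 0.40 (SD over 2 probe sets). The median over all genes was 0.020, with quartiles of -0.14 and 0.18.

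Among the 6 measured genes, NCOA1 was lower in the knockdown on every probe set, NCOA2 was lower by a smaller amount on every probe set, and FOXA1 was far lower on 1 probe set and near 0 on the other. EP300, GATA2 and HOXB13 had probe sets on both sides of 0, all of them within 1.5-fold of it. By the mean over probe sets, 2 of 6 genes (NCOA1 and FOXA1) were 2-fold or more lower, where 1.44% of all genes were, and none was 2-fold higher, where 1.16% were. By probe set, 4 of 17 were 2-fold or more lower against a background of 2.39%, and none was 2-fold higher against 1.48%. Of the 17 probe sets, 13 lay below 0, and 8 of these 13 belong to NCOA1 and NCOA2. The share of all probe sets below 0 was not counted, but the median over all 44672 was 0.014. By gene mean, 5 of 6 lay below 0, where 46.3% of all genes did. The median over the 6 genes was -0.28.

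**Figure D1:**
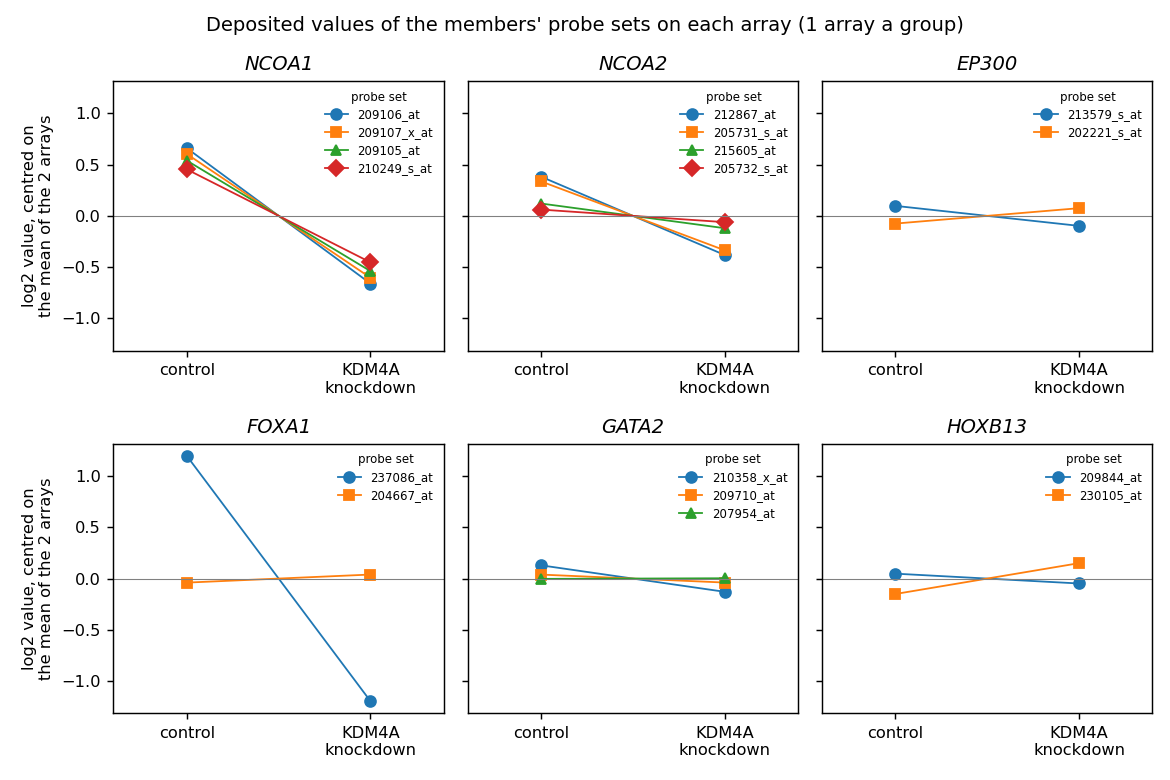
Centred log2 values of every probe set of the 6 measured genes on the control array and the KDM4A knockdown array, 1 array each; lines join the values of a probe set. All 4 lines of NCOA1 and all 4 of NCOA2 slope down, while FOXA1 has 1 steep line, from 1.20 to -1.20, and 1 nearly flat line.

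The DNA just upstream of 3 of these genes is shown as an example of each of 3 outcomes. NCOA1 was lower on every probe set, FOXA1 on 1 of 2, and EP300 had probe sets on either side of 0. NCOA2, also lower on every probe set, is not shown. Each sequence is the 250 bases before a RefSeq transcription start in GRCh38.p14, read 5′ to 3′ along the gene's strand. NCOA1 lies on the plus strand and the window is chr2:24491004-24491253, that of FOXA1 on the minus strand is chr14:37595250-37595499, and that of EP300 on the plus strand is chr22:41092342-41092591. Capitals mark the GC box GGGCGG, a site for factors of the Sp1 type, on either strand.
NCOA1: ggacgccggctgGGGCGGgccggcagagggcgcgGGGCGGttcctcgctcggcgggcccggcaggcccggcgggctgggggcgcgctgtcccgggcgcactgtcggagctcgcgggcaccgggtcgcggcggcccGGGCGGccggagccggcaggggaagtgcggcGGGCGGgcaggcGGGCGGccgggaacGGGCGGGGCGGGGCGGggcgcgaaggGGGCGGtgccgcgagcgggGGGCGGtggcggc
FOXA1: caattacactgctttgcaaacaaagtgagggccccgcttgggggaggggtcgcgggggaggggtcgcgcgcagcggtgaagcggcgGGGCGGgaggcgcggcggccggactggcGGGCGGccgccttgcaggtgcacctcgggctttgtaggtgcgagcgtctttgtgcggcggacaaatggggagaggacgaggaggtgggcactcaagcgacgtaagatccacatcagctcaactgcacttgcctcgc
EP300: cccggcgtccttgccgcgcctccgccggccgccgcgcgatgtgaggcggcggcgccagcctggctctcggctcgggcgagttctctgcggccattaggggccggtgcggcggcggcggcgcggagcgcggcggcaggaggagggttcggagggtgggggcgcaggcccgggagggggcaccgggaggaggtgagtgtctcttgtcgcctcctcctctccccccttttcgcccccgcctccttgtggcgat

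The NCOA1 window held 10 matches to GGGCGG, some sharing a base with the next. Among 35116 upstream windows of the same length, 0.151% held as many, and 42.6% held at least 1. FOXA1 had 2 matches, and 24.3% of windows held 2 or more. EP300 had none. The share of G and C was 87.2% for NCOA1, 67.2% for FOXA1 and 76.8% for EP300, with a median of 58% over all windows. The other motifs searched on both strands were the CCAAT box (in 32.0% of all windows), the TATA box spelled TATAAA (10.7%), the forkhead motif TGTTTAC (2.98%), the GATA motif spelled AGATAA (9.17%) and AGAACA, an arm of the androgen receptor site (12.4%). None of these occurred in any of the 3 windows shown. The table of promoters lists 3 starts for NCOA1 and 1 for FOXA1. The second NCOA1 window, chr2:24491627-24491876, was also rich in G and C (74%) with 3 GC boxes. The third, chr2:24584227-24584476, was not (27.2%) and held 1 CCAAT box, 1 TATA box and 1 GATA motif. These matches describe the letters only, and the arrays do not say which start was used.

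NCOA1 encodes steroid receptor coactivator 1, the founding p160 coactivator, which binds the hormone-bound receptor and carries domains that recruit acetyltransferases and methyltransferases. Probe set 209106_at read 0.66 in the control and -0.66 in the knockdown, a difference of -1.32. Probe set 209107_x_at read 0.60 and -0.60, a difference of -1.21. Probe sets 209105_at and 210249_s_at read 0.54 and 0.45 in the control, -0.54 and -0.45 in the knockdown, with differences of -1.08 and -0.91. All 4 were thus lower in the knockdown, 3 past the 2-fold rule and the remaining one by 1.88-fold. The mean difference was -1.13 ± 0.18 (SD over 4 probe sets), a 2.19-fold lower value. It stayed between -1.20 and -1.06 when each probe set was left out in turn.

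The size and the agreement between probe sets placed NCOA1 near the lower end of the differences. Counting NCOA1 itself, 187 of 17689 genes (1.06%) had a mean difference as low or lower. Of 2090 genes with 4 or more probe sets, 7 (0.335%) had every probe set at or below -0.91, the least lowered probe set of NCOA1, and NCOA1 is 1 of these 7. The other six were EXOC5, FZD3, ANGPT2, ZNF652, UHMK1 and DEPDC1, whose means ran from -1.44 to -2.64. These genes were picked by their values and carry no test.

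The genes beside NCOA1 on its chromosome lay closer to 0. At lower coordinates ITSN2 lay at -0.094 ± 0.60 (SD over 3 probe sets) and FAM228A at -0.16 on a single probe set. At higher coordinates PTRHD1 lay at -0.45 on a single probe set and CENPO, a centromere protein gene, at 0.095 ± 0.28 (SD over 2 probe sets). None of these 4 neighbours reached 2-fold.

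NCOA2 encodes the second p160 coactivator, close in structure to NCOA1. Probe set 212867_at read 0.38 in the control and -0.38 in the knockdown, a difference of -0.76, and 205731_s_at read 0.34 and -0.34, a difference of -0.67. Probe sets 215605_at and 205732_s_at lay closer to 0, with differences of -0.24 and -0.12. All 4 were on the same side, but one pair was 1.70-fold and 1.59-fold lower and the other pair only 1.18-fold and 1.09-fold. The mean was -0.45 ± 0.32 (SD over 4 probe sets), a 1.37-fold lower value, and 6.89% of genes were as low or lower.

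NCOA2 therefore differed less than NCOA1. The gene means were 0.68 apart on the log2 scale (-1.13 against -0.45), and the probe sets did not overlap: the least lowered of NCOA1 (-0.91) lay 0.14 below the most lowered of NCOA2 (-0.76). For scale, the SD between probe sets of the same gene, pooled over 8944 genes with 2 or more, was 0.33. Probe sets bind with different efficiency, so part or all of such a gap can come from the probes, and this was not tested. The neighbours of NCOA2 lay on both sides of 0, with TRAM1 at -0.46 ± 0.11 (SD over 3 probe sets), LACTB2 at -0.23 ± 0.19 (SD over 2), PRDM14 at -0.096 and SLCO5A1 at 0.48 ± 0.15 (SD over 2).

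EP300 encodes p300, the acetyltransferase that p160 proteins bring to the receptor and that marks active enhancers. Probe set 213579_s_at read 0.098 in the control and -0.098 in the knockdown, a difference of -0.20, and 202221_s_at read -0.075 and 0.075, a difference of 0.15. The 2 probe sets had opposite signs, and their mean of -0.022 ± 0.24 (SD over 2 probe sets) sat at the 42.5th percentile of all genes. CREBBP, its close paralog, lay at 0.045 ± 0.21 (SD over 4 probe sets). EP300-AS1, an antisense RNA gene named for EP300, lay at -0.080. The protein-coding neighbours of EP300 were RBX1 (0.24) and XPNPEP3 (-0.67 ± 0.71, SD over 6 probe sets) on one side and L3MBTL2 (0.20 ± 0.22, SD over 2) and CHADL (-0.030) on the other.

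**Figure D2:**
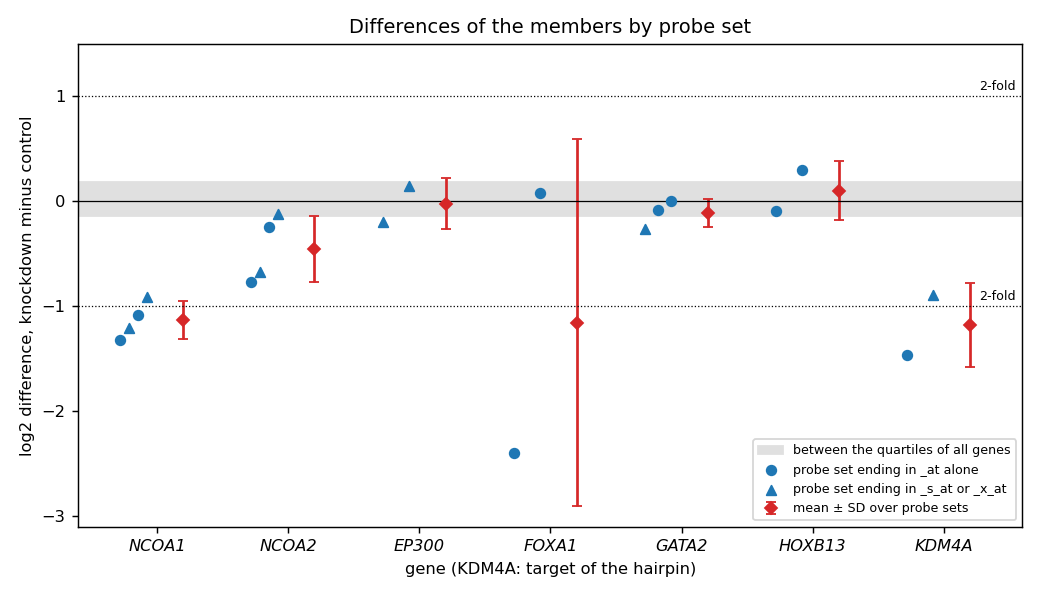
Log2 difference, knockdown minus control, of each probe set (blue; triangles can match several transcripts) and the mean ± SD over probe sets (red) for the 6 genes and KDM4A; the grey band runs between the quartiles of all genes and dotted lines mark 2-fold. The NCOA1 probe sets lie between -1.32 and -0.91, those of FOXA1 at -2.39 and 0.079, and the means of EP300, GATA2 and HOXB13 lie in the band.

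FOXA1 encodes the forkhead pioneer factor that opens chromatin for the receptor in luminal prostate cells. Probe set 237086_at read 1.20 in the control and -1.20 in the knockdown, a difference of -2.39 or a 5.26-fold lower value. Of 34880 probe sets, 55 (0.158%) were as low or lower, itself included. Probe set 204667_at read -0.039 in the control and 0.039 in the knockdown, a difference of 0.079, which is at the 58.4th percentile of probe sets. The first FOXA1 probe set was thus among the most lowered on the arrays, and the other lay near no difference. Both names end in _at alone, which marks probe sets designed to match 1 gene.

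The mean of -1.16 ± 1.75 (SD over 2 probe sets) describes neither probe set, and FOXA1 passed 2-fold only through 237086_at. The gap of 2.47 between its probe sets was wide for these arrays. The median gap of 4485 genes with exactly 2 probe sets was 0.20, and 6 of them (0.134%), FOXA1 included, had one as wide. The cutoff of this count is the gap of FOXA1 itself, already known when the gene was chosen, so it carries no test. Which part of the transcript each probe set reads is not given in the sources used here, so a change in total FOXA1 RNA cannot be told apart from a change in 1 transcript form or from a probe set that reads other RNA. TTC6, the nearest protein-coding neighbour on the upstream side of FOXA1, lay at 0.079 ± 0.0011 (SD over 2 probe sets). On the other side MIPOL1 lay at -0.13 ± 0.66 (SD over 3 probe sets) and SLC25A21 at -1.15 on a single probe set. SSTR1, beyond TTC6, lay at 0.023. The paralogs FOXA2 and FOXA3 lay at 0.064 ± 0.18 (SD over 3 probe sets) and 0.11.

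**Figure D3:**
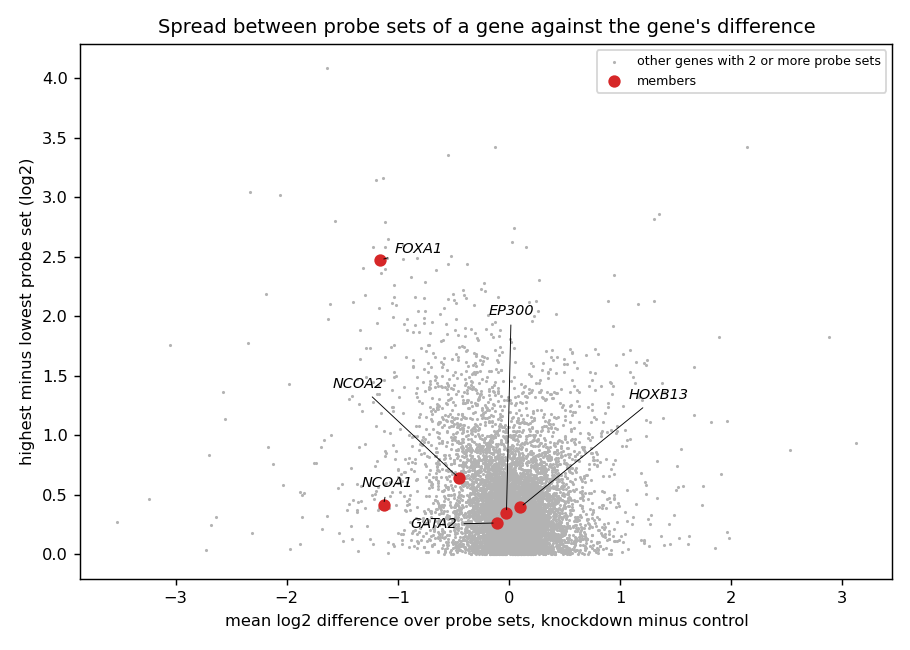
Gap between the highest and lowest probe set (log2) against the mean log2 difference for the 8944 genes with 2 or more probe sets; red points are the 6 genes described. FOXA1 and NCOA1 have like means (-1.16 and -1.13) but gaps of 2.47 and 0.41.

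GATA2 encodes a zinc finger pioneer factor that binds beside the receptor at prostate enhancers. Its probe sets 210358_x_at, 209710_at and 207954_at read 0.13, 0.039 and -0.0030 in the control, with the same sizes and opposite signs in the knockdown. Their differences were -0.26, -0.078 and 0.0060, so the largest was 1.20-fold. The mean of -0.11 ± 0.14 (SD over 3 probe sets) lay at the 29.1st percentile of genes. GATA2-AS1, which overlaps GATA2 in the RefSeq annotation, lay at -0.22 on its single probe set. The protein-coding neighbours EEFSEC (0.33), DNAJB8 (-0.063), RPN1 (-0.083) and RAB7A (0.36 ± 0.15, SD over 5 probe sets) lay on both sides of 0. The 5 other GATA genes ran from -0.21 (GATA5) to 0.42 (GATA6), and none reached 2-fold.

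HOXB13 encodes a homeodomain factor found in the prostate and hindgut. Probe set 209844_at read 0.048 in the control and -0.048 in the knockdown, a difference of -0.096, and 230105_at read -0.15 and 0.15, a difference of 0.30. The mean of 0.10 ± 0.28 (SD over 2 probe sets) lay at the 63.7th percentile of genes. PRAC1, the prostate gene beside it, lay at 0.11 on a single probe set. On the other side TTLL6 lay at 0.95 on a single probe set and CALCOCO2 at -0.29 ± 0.17 (SD over 4 probe sets). The 9 other measured HOXB genes ran from -0.30 (HOXB8) to 0.15 (HOXB2), none past 2-fold.

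Other genes of the pathway were taken from 5 lists of names, to be read against the 1.44% of all genes that were 2-fold or more lower and the 1.16% that were higher. Of 50 measured coactivators, 29 lay below 0 and the median was -0.073, while 46.3% of all genes lay below 0 with a median of 0.020. MED1, the Mediator subunit that nuclear receptors bind, was 2.07-fold lower (-1.05 ± 0.51, SD over 4 probe sets). The MED1 probe sets read 0.81, 0.60, 0.47 and 0.21 in the control and the same sizes below 0 in the knockdown, so that all were lower, as for NCOA1. FHL2, a LIM-domain coactivator of the receptor, was 3.63-fold higher (1.86) on its single probe set. The other measured NCOA genes, NCOA4 (0.16), NCOA5 (0.17), NCOA6 (0.11) and NCOA7 (-0.27), stayed within 1.5-fold of no difference. These 4 have names in common with the p160 genes but belong to other families.

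Corepressors were split around 0, with 23 of 45 below it and a median of -0.014. BRCA1, a DNA repair protein that can also act as a coactivator of this receptor, was 2.29-fold lower (-1.20 ± 0.76, SD over 2 probe sets), and no corepressor was 2-fold higher. That is 1 of 45 (2.22%) against 1.44% of all genes. HEY1 (0.76) and CTBP2 (0.68) lay highest. Of 39 transcription factors of prostate cells, 19 lay below 0, with a median of 0.013. CEBPB, a basic leucine zipper factor, was the only one past 2-fold (-1.11, 1 probe set), which is 2.56% of the list against the same 1.44%, and TFAP2C (0.84) and TFAP2A (0.64), both AP-2 factors, lay highest. Of 18 chaperones of steroid receptors none reached 2-fold, and the median was 0.055. HSP90AB1 lay at -0.22, ST13 at -0.41 and FKBP5, both a chaperone and an androgen-induced gene, at 0.79. TSC22D1, a leucine zipper factor that the list holds although it is not a chaperone, lay at 0.43.

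Androgen-induced genes lay mostly above 0. Of 29 measured, 8 (27.6%) lay below 0, where 46.3% of all genes did, and the median was 0.39 against 0.020. Of the 29, 2 (6.90%, against 1.16% of all genes) were 2-fold or more higher (HPGD at 2.88 and BMPR1B at 1.20) and none was 2-fold lower (1.44% of all genes). The lowest were TMPRSS2 (-0.76) and NDRG1 (-0.59), and KLK3, which encodes prostate-specific antigen, lay at 0.11.

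**Figure D4:**
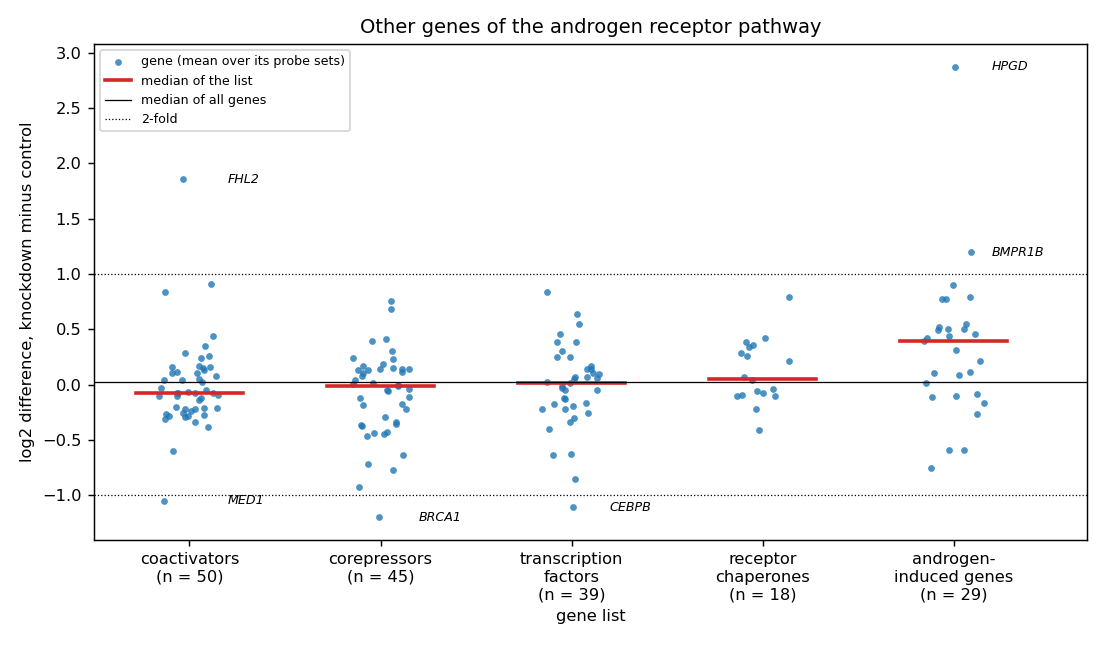
Log2 difference, knockdown minus control, of each gene in 5 lists (blue points, mean over its probe sets; sideways scatter has no meaning), with list medians in red, the median of all genes as a thin line and 2-fold as dotted lines. Most coregulators, transcription factors and chaperones lie within 2-fold of 0, and the androgen-induced genes have the highest median, 0.39.

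Both cultures were of the LNCaP line, so a difference in a marker of another cell type does not show that such cells were present. Markers of other cell types did not reach 2-fold for basal epithelium (4 measured, median -0.073), leukocytes (4 measured, median -0.019) or HEK293T packaging cells (4 measured, median -0.043). The 6 stromal markers had the median farthest from 0 of these lists (0.34, with 4 of 6 above 0). ACTA2 passed 2-fold at 2.14 ± 2.42 (SD over 2 probe sets), with 1 probe set at 3.85 and the other at 0.43. COL1A1 lay at 0.73 ± 0.76 (SD over 4) and COL3A1 at 0.63 ± 0.68 (SD over 3). DCN lay at 0.044 ± 0.21 (SD over 4). VIM (-0.35) and FAP (-0.29) lay below 0, each on a single probe set. Among 11 luminal markers the median was 0.11, with 8 above 0 and 3 below. These include HOXB13, described above, and TMPRSS2, KLK2 and KLK3, which are also among the androgen-induced genes. KRT19 passed 2-fold at 1.35 ± 2.02 (SD over 2 probe sets), with 1 probe set at 2.78 and the other at -0.075. The lowest were TMPRSS2 at -0.76 ± 0.16 (SD over 4) and EPCAM at -0.40 on a single probe set. ACTA2 was thus 1 of 6 stromal and KRT19 1 of 11 luminal markers 2-fold or more higher, where 1.16% of all genes were. Whether these marker differences relate to the values of NCOA1 or FOXA1 was not tested.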

How the data were processed

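RNA of 2 LNCaP cultures was hybridised to 1 array each. The authors deposited log-scale values, taken as log2 because the submitters' processing notes name RMA (no version). All 44672 rows summed to 0 over the 2 arrays (tolerance 2e-06), so values are centred per probe set. The sources used here do not give the log base or the centring step. Genes were named through the platform annotation; 34839 of 34880 probe sets with 1 gene matched RefSeq genes of GRCh38.p14 by Entrez identifier and no symbol changed. Another 1619 probe sets with several genes, 8131 unnamed ones and 42 AFFX control probe sets were left out. No filter on low values was applied, since centring removes levels. The members and lists were chosen with earlier results of these data known. Named were the members and KDM4A, list genes past 2-fold and, on a side with none, the 2 farthest from 0; genes named for agreement between probe sets, as paralogs, as neighbours or as androgen and cell type markers were added. Alternatives were medians over probe sets, no _x_at or _s_at probe sets, each probe set left out, the median difference subtracted, and 1.5-fold and 3-fold rules. The averaging over probe sets was tested on simulated differences of known size. That test did not cover the reading of the 2 columns, the annotation or the log base. Python 3.11.15, numpy 2.4.6, pandas 2.3.3 and matplotlib 3.10.9 were used.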

Additional observations from a re-analysis of the deposited data

How the results depend on the processing

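With 1 array a group, a left-out replicate was not possible. Over medians, left-out probe sets and the subtracted median, the gene difference ran from -1.20 to -1.06 for NCOA1, from -0.56 to -0.35 for NCOA2 and from -0.17 to -0.036 for GATA2. The sign turned with the probe set kept for FOXA1 (0.079 without 237086_at, -2.39 without 204667_at), EP300 (-0.20 to 0.15) and HOXB13 (-0.096 to 0.30). EP300 had no value without _s_at and _x_at probe sets. The size rule set the counts. At 1.5-fold, 774 of 17689 genes and 2223 of 34880 probe sets were lower, and 760 and 1920 were higher. At 3-fold these were 81 and 255 lower and 45 and 101 higher. Of the 17 probe sets of the described genes, 7 were lower at 1.5-fold and 1 at 3-fold, and 0 of the 6 genes were lower at 3-fold. The list counts that follow are to be read against those of all genes. The 50 coactivators had 2 lower and 3 higher at 1.5-fold, and 0 lower and 1 higher at 3-fold. The 45 corepressors had 5 lower and 2 higher at 1.5-fold, and 0 lower at 3-fold. The 39 transcription factors had 4 lower and 2 higher at 1.5-fold, and 0 lower at 3-fold. The 18 chaperones had 1 higher at 1.5-fold. The 29 androgen-induced genes had 3 lower and 6 higher at 1.5-fold, and 1 higher at 3-fold. Without _x_at and _s_at probe sets, 225 of 14791 genes were 2-fold or more lower and 171 higher. In that setting 0 of 39 coactivators were lower and 0 higher, and 0 of 29 corepressors were lower. FHL2 and BRCA1 have no other probe sets, and MED1 moved to -0.85. HPGD likewise had no value, and the 2 higher of 25 androgen-induced genes were BMPR1B and PTGER4 (1.54). With medians over probe sets, 261 of 17689 genes were 2-fold or more lower and 212 higher. In that setting 2 of 39 transcription factors were lower, TRPS1 (-1.01) joining CEBPB. Of the 29 androgen-induced genes 1 was higher, as BMPR1B fell short at 0.997. The median of the androgen-induced genes, 0.39 in the main setting, was 0.28 with medians over probe sets. It was 0.32 over 25 genes without _x_at and _s_at probe sets, and 0.38 with the median difference subtracted.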

Other observations

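The HOXB cluster without HOXB13, which patterns the body axis, had a median difference of -0.086 over 9 measured genes, 6 of them below 0. The GATA genes other than GATA2 had a median of -0.046 over 5, 3 of them below 0. By comparison, 46.3% of all genes lay below 0, with a median of 0.020. No gene of either family passed 2-fold, against 1.44% of all genes lower and 1.16% higher.

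A few coregulators and transcription factors short of 2-fold, named here after their values were seen, had many probe sets on 1 side. CREB1, a cAMP-responsive factor that binds EP300 and CREBBP, lay at -0.63 with all 7 probe sets below 0, from -1.19 to -0.26. TRPS1, a GATA-type repressor, lay at -0.85 with 4 probe sets from -1.05 to -0.35. JMJD1C, a demethylase-family coactivator, lay at -0.60 with 5 probe sets from -1.20 to -0.12. CTBP2, a corepressor, lay at 0.68 with all 6 probe sets above 0, from 0.11 to 0.97. Other listed genes with smaller differences shared this trait, such as ESR1 (-0.22, all 7 probe sets below 0) and SIN3A (0.14, all 4 above 0). The share of all genes with every probe set on 1 side was not counted. NRIP1, a corepressor induced by nuclear receptors, resembled FOXA1 in that its 2 probe sets differed, at -1.60 and 0.16.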
